A study of Mus musculus with 3 samples.

Results

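Histone genes were examined in RNA-seq of mouse satellite cells, which are the stem cells of adult muscle. The genes were chosen by symbol: 67 clustered genes whose names begin with Hist1h to Hist4h, 10 variant genes of the H2af, H3f3 and H1f families, and Slbp, which encodes the protein that binds the end of clustered histone mRNAs. These 78 genes are among 20308 gene symbols in the table. Pax7-ZsGreen mice, aged 3 months, carry a green reporter driven by Pax7, a satellite cell transcription factor; their hindlimb muscle was digested, several animals were pooled, and about 200000 ZsGreen-positive cells were sorted per sample. The tissue field of the labels reads tibialis anterior, which is narrower than the hindlimb muscles of the series text. The 3 libraries form 1 group with no contrast between conditions, and comparisons are therefore made between genes within each library.

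Histones package DNA into nucleosomes, and each nucleosome holds the core histones H2A, H2B, H3 and H4, with the linker histone H1 at its edge. Clustered histone genes supply new chromatin during S phase; their short mRNAs usually lack introns and a poly(A) tail and end in a conserved stem-loop that SLBP binds. Variant histones, such as H3.3, H2A.Z and macroH2A, come from single genes that mostly have introns and poly(A) tails, and they are made and deposited outside S phase as well, which makes them the main supply in cells that do not divide. Adult satellite cells are mostly quiescent in resting muscle and enter the cell cycle after injury.

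Values are TPM (a length-corrected share of each library's transcripts), given for replicates 1, 2 and 3 or as mean ± SD (n = 3). TPM keeps no read totals; library depth is therefore unknown and no detection limit can be given. Separate pools of animals are not stated for the 3 libraries; p-values therefore reflect the spread among these samples alone, and that spread may be technical. Between 10709 and 11202 genes were listed above 0 per library. All 10 satellite cell markers were above 1 TPM (limma, Benjamini-Hochberg), with summed levels between 7406 and 7732 TPM. They ranged from Sdc4 at 4135 ± 192 TPM to Calcr at 31.5 ± 3.45 TPM, with Pax7 at 51.4 ± 5.22 TPM. Such sums depend on the size of the list and on a few high genes, so they do not measure purity. Markers of other cells were lower in sum, at 2082 to 2340 TPM for 7 fibro-adipogenic markers (5 above 1 TPM), 1538 to 2835 TPM for 7 endothelial markers (7 above) and 243 to 285 TPM for 7 leukocyte markers (4 above). Fibro-adipogenic markers ranged from Gsn at 888 ± 104 TPM to Pdgfra at 4.98, 0.11 and 0.06 TPM, endothelial ones from Fabp4 at 1898 ± 629 TPM to Kdr at 15 ± 5.24 TPM, and leukocyte ones from Cd74 at 153 ± 17.2 TPM to Cd3e, listed at 0. The haemoglobin genes Hba-a2 and Hbb-bs were at 193 ± 133 and 104 ± 51.3 TPM, both above 1 TPM (limma, Benjamini-Hochberg). The marker sums were 161 to 199 TPM for 5 pericyte and smooth muscle markers (3 above), 89.4 to 116 TPM for 4 Schwann cell markers (3 above) and 53.3 to 80.5 TPM for 5 mature fibre markers (3 above). Of all genes in the table, 38.4% were above 1 TPM, as were 60.8% of those listed above 0 in at least 1 library. The part of these other cells in the histone levels was not tested. In a sorted population, fewer cells that carry a transcript and less transcript per cell cannot be told apart.

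The clustered mRNAs carry their mark at the 3′ end, so those ends are shown first for genes whose levels are described below. The stem-loop was searched on the transcript strand as GG, 3 bases of any kind, TT, any base, T, any base, A, 3 bases of any kind and CC. The first and last 6 of these 16 bases had to pair and enclose a loop of 4. The search covered all annotated transcripts of each gene (GENCODE M21, GRCm38). The stem-loop was found in 46 of 67 clustered genes and, among the variants, in H2afx alone of 10. Of 21923 annotated protein-coding genes, 0.319% held it, and 47 of those 70 genes were histone genes named here. Capitals mark the stem-loop, with 5 bases of flank on each side, 5′ to 3′ on the gene's strand.
Hist1h1c, chr13:23739507-23739532, plus strand: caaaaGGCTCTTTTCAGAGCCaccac
Hist3h2a, chr11:58955167-58955192, plus strand: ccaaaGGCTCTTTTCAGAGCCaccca
Hist2h2aa2, chr3:96239779-96239804, minus strand: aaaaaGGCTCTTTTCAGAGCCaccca
Hist4h4, chr6:136803993-136804018, minus strand: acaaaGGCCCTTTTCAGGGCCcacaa
Hist1h4h, chr13:23531453-23531478, plus strand: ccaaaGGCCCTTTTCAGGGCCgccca
H2afx, chr9:44335235-44335260, plus strand: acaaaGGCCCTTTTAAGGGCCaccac
The stem differed between H4 and the other histones. At the fourth position of the motif the base was C in 12 of the 12 clustered H4 genes that held the motif, and T in 34 of the 34 clustered H1, H2A, H2B and H3 genes that held it. H2afx, an H2A variant, carried the form with C. The most frequent sequence, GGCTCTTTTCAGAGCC, was shared by 26 clustered genes, of which 6 were listed above 0 in at least 1 library. The motif was not found in the annotated transcripts of 21 clustered genes. In 17 of these the annotation ended fewer than 50 bases after the stop codon, so for them the search says little about the mRNA itself.

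A poly(A) signal, AATAAA or ATTAAA within the last 50 bases of an annotated transcript, was present in 17 of 67 clustered genes and in 10 of 10 variants, against 80.7% of annotated protein-coding genes. Capitals mark the signal in the genes below, of which Hist1h1c, Hist3h2a and H2afx hold both kinds of end.
Hist1h1c, chr13:23740334-23740355, plus strand: atgcttctAATAAAaagcgttt
Hist3h2a, chr11:58956789-58956810, plus strand: atatgcccAATAAAataagagt
H2afx, chr9:44336035-44336056, plus strand: ctaattttATTAAAggatcgtt
H2afz, chr3:137866889-137866910, plus strand: gcttactaATTAAAcagtgcat
H3f3a, chr1:180800840-180800861, minus strand: tgaaaaatAATAAAagtaccaa
Both features are descriptions of the annotation; which end was used in these cells was not measured.

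Most clustered genes were listed at 0, and 3 of the variants, H3f3a, H3f3b and H2afz, held nearly all histone TPM. A 0 in a TPM table without read counts is a listed value and no measured absence, and short transcripts of every kind were often listed at 0, as 83.6% of other protein-coding genes under 500 bases were. Whether short histone mRNAs could be measured in this table was not tested. Of the 67 clustered genes, 55 were listed at 0 in all 3 libraries, 7 were above 0 in 1 library, 2 in 2 libraries and 3 in all libraries. Of the 10 variants, 1 was listed at 0 in all libraries, 1 was above 0 in 2 libraries and 8 in all libraries. In the whole table, 63.1% of genes were listed above 0 in at least 1 library. Levels were tested against 1 TPM on the log2(TPM + 0.1) scale with limma over the 12822 genes above 0 in at least 1 library, and 60.8% of the genes tested were called above 1 TPM and 2.18% below it (Benjamini-Hochberg adjusted p threshold 0.05). By that test 2 clustered genes and 7 variants were above 1 TPM, and no histone gene was called below it. The remaining 10 clustered genes and 2 variants that were tested were undecided, as were 37% of the genes tested. A mean of at least 1 TPM was reached by 10 clustered genes and 8 variants, against 55.7% of all genes. Set against all genes in the table, the shares called above 1 TPM were 2.99% of clustered genes, 70% of variants and 38.4% of all genes. The median level was 0 TPM over clustered genes, 24.3 TPM over variants and 2.24 TPM over all genes.

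**Figure D1:**
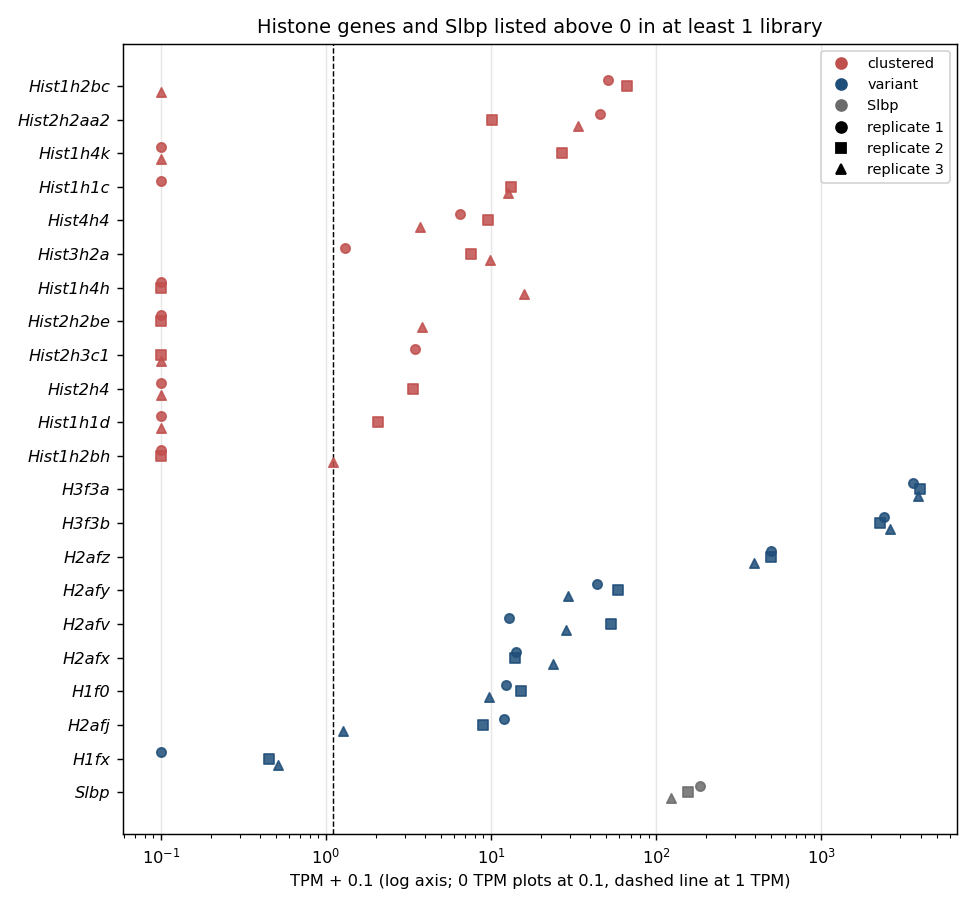
TPM + 0.1 on a log axis for each of the 22 genes listed above 0 in at least 1 library, with 1 symbol per replicate; clustered genes are at the top, variants below them and Slbp last. Most clustered genes have at least 1 library at 0, whereas H3f3a, H3f3b and H2afz lie together above 390 TPM in every library.

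Summed over genes, clustered histones reached 108, 138 and 79.8 TPM in replicates 1, 2 and 3, against 6601, 6854 and 6961 TPM for the variants. The class sums did not overlap. Clustered genes thus held 1.57% ± 0.424 of all histone TPM, and the log2 ratio of clustered over variant TPM was -5.94, -5.63 and -6.45, a mean of -6.01 ± 0.412 (SD, n = 3). No test was made of this sum over chosen genes. The ratio rested on the 3 most abundant variants, which held 98.4% ± 0.468 of variant TPM. Without them the other 7 variants summed to 94.9, 150 and 92.2 TPM, close to the clustered sums, and the mean log2 ratio was -0.0471.

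The sums of the classes differed to unequal extents by histone type. For H3, clustered genes summed to 3.38, 0 and 0 TPM, and the H3.3 genes to 6008, 6207 and 6477 TPM. For H2A, clustered genes summed to 47.0, 17.5 and 43.3 TPM, and variants to 580, 632 and 474 TPM. For linker histones, clustered genes summed to 0, 15.1 and 12.5 TPM, and H1f0 with H1fx to 12.3, 15.5 and 10 TPM. The H3 and H2A sums of the classes did not overlap in any library, whereas the H1 sums did. H2B and H4 have no variant gene in the set. Their summed transcripts were 50.8, 66.2 and 4.72 TPM for H2B and 6.36, 39.6 and 19.3 TPM for H4, so H3 transcripts made up 90.1% ± 1.68 of all histone TPM.

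**Figure D2:**
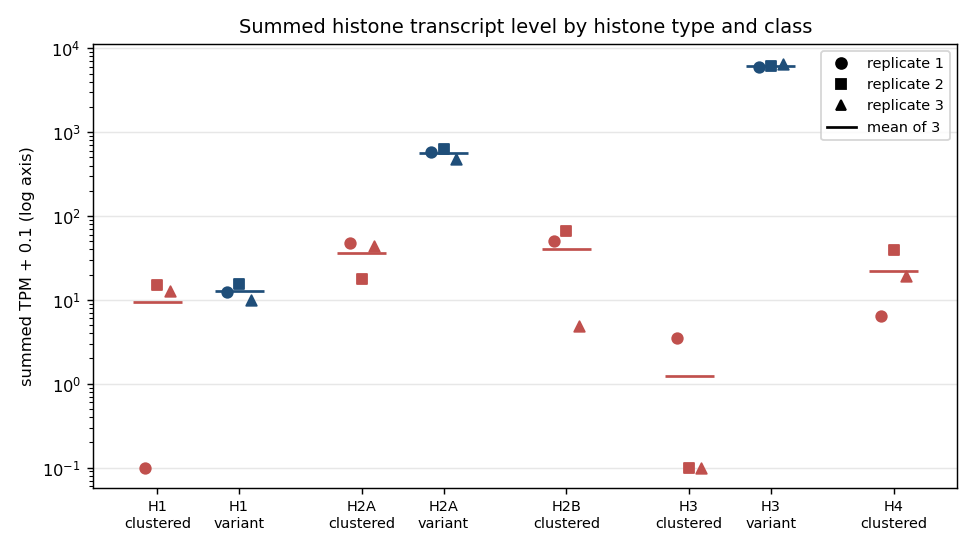
Summed TPM + 0.1 on a log axis by histone type (H1, H2A, H2B, H3 or H4) and class, with 1 symbol per replicate and a line at the mean of 3; clustered sums stand left of variant sums where both exist. The H3.3 sums lie between 6008 and 6477 TPM and the clustered H3 sum is 0 in replicates 2 and 3.

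Among the variants, the H3.3 genes were the highest. H3f3a and H3f3b encode the same H3.3 protein, the H3 form that is deposited independently of replication at active genes and other sites. H3f3a (chromosome 1, 180800832 to 180813943, minus strand, GRCm38) reached 3604, 3945 and 3852 TPM and ranked number 25 of all genes. H3f3b (chromosome 11, 116021912 to 116027962, minus strand) reached 2404, 2262 and 2625 TPM and ranked number 52. The values of each gene lay within 1.16-fold of one another across libraries. H3f3b was lower than H3f3a in every library, by log2 ratios of -0.58, -0.80 and -0.55, or 0.639-fold on average. The exact two-sided sign-flip permutation p was 0.25, the smallest value that 3 libraries allow (0.321 after Benjamini-Hochberg adjustment over 9 gene pairs). The 2 genes shared no 31-base word in their longest coding transcripts, and 20.2% of the words of H3f3a and 13.6% of those of H3f3b occurred in other annotated genes.

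H2A variants spanned a wide range. H2A.Z, which marks promoters and enhancers, is encoded by H2afz and H2afv. H2afz (chromosome 3, 137864487 to 137866922, plus strand) reached 498, 498 and 392 TPM, and H2afv (chromosome 11, 6427229 to 6444443, minus strand) reached 12.8, 52.9 and 28.3 TPM. H2afz held 77.2% ± 1.88 of all H2A TPM and exceeded H2afv in every library, by log2 ratios of 5.27, 3.23 and 3.79 (17.1-fold on average, exact sign-flip permutation p = 0.25). H2afv spread 4.12-fold between its lowest and highest library, and 90% of the 200 genes nearest to it in level had a smaller SD on the log2 scale. Of the words of H2afz, 34.5% occurred in other annotated genes, nearly all in Gm8203, and reads from these cannot be told apart.

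MacroH2A, an H2A form with a large extra domain associated with silent chromatin, was represented by H2afy at 44.0, 58.9 and 29.0 TPM. Its paralogue H2afy2 was listed at 0 in all 3 libraries, the sole variant with no value above 0. H2afx, whose protein is phosphorylated at DNA breaks, reached 14.0, 13.8 and 23.7 TPM. It was below H2afz in every library, by a mean log2 ratio of -4.78 ± 0.641 (exact sign-flip permutation p = 0.25). H2afj, an H2A form described in senescent human cells, gave 11.8, 8.79 and 1.16 TPM. It was lower than H2afx in every library, but by log2 ratios of -0.24, -0.65 and -4.24, so the size of that difference rested on replicate 3. H2afj was not decided against 1 TPM by limma (adjusted p = 0.0543), but it passed without replicate 3 and in 3 other settings, a pseudocount of 0.01 (limma adjusted p = 0.0350), a filter on the mean (0.0354) and a robust variance prior (0.0130).

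Linker histone variants were modest or near 0. H1f0, the linker histone typical of non-dividing and differentiated cells, reached 12.3, 15.1 and 9.59 TPM and was above 1 TPM (limma adjusted p = 3.72e-05). H1fx was listed at 0, 0.35 and 0.41 TPM and was undecided. H1f0 exceeded H1fx in each library (exact sign-flip permutation p = 0.25); no fold is given because H1fx was listed at 0 in replicate 1.

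**Figure D3:**
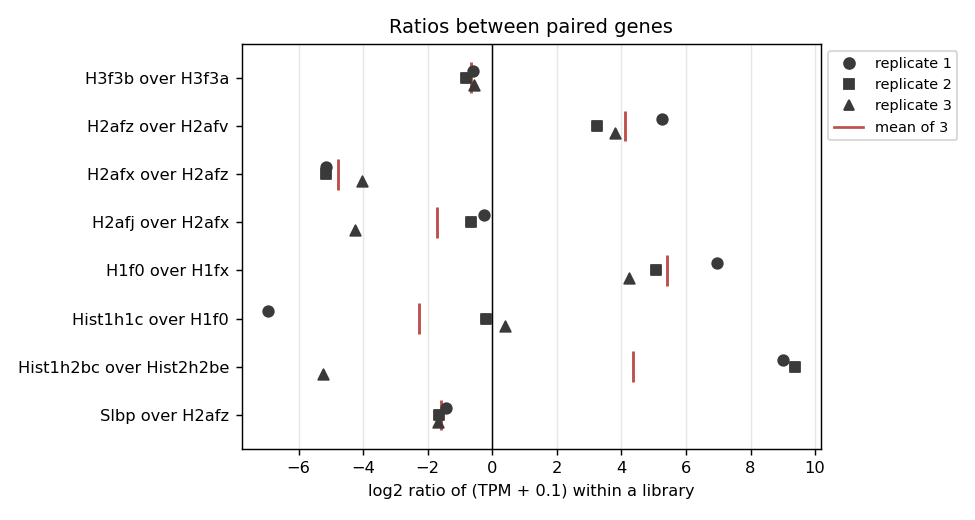
Log2 ratio of (TPM + 0.1) within each library for 8 of the 9 gene pairs, with 1 symbol per replicate and a line at the mean of 3; the pair with H2afy2, which is listed at 0 throughout, is left out. H3f3b over H3f3a and Slbp over H2afz are tight and below 0, whereas the pairs with Hist1h1c and Hist1h2bc change sign between libraries. Every point of the pair with Hist1h2bc is set by a gene listed at 0 and by the 0.1 added. The same holds for the first points of Hist1h1c over H1f0 and of H1f0 over H1fx.

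Of the clustered genes, Hist2h2aa2 and Hist4h4 were above 1 TPM. Hist2h2aa2, an H2A gene of the Hist2 cluster (chromosome 3, 96239749 to 96240276, minus strand), reached 45.8, 10.01 and 33.5 TPM (limma adjusted p = 4.04e-06). All of its 31-base words also occur in Hist2h2aa1, which was listed at 0 in all libraries, and in the annotated gene Gm20634 of the same cluster. The value therefore cannot be assigned to 1 copy. Hist4h4, an H4 gene outside the main clusters (chromosome 6, 136801553 to 136804415, minus strand), reached 6.36, 9.47 and 3.62 TPM (limma adjusted p = 0.0102). Leaving out replicate 2 made it undecided (limma adjusted p = 0.0881). Hist3h2a, an H2A gene of the Hist3 cluster (chromosome 11, 58954685 to 58956830, plus strand), was listed at 1.2, 7.49 and 9.77 TPM and was undecided (limma adjusted p = 0.0757). It overlaps Trim17 on the same strand, and 32.1% of its words lie in that gene.

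Other clustered genes were high in some libraries and listed at 0 in others. Hist1h2bc, an H2B gene (chromosome 13, 23684199 to 23692908, plus strand), had the highest mean of the clustered genes, from 50.8, 66.2 and 0 TPM. Such a gap was rare in the table: of 2476 genes with at least 50 TPM in both replicates 1 and 2, 3 were listed at 0 in replicate 3. Hist1h2bc shares 32.6% of its words with other genes. Hist1h1c, a linker histone gene (chromosome 13, 23738808 to 23740367, plus strand), was listed at 0, 13.2 and 12.5 TPM, and in replicates 2 and 3 lay near H1f0. The log2 ratio of Hist1h1c over H1f0 was -6.95, -0.20 and 0.38 (exact sign-flip permutation p = 0.75), where the first value is set by a listed 0. For Hist1h2bc and Hist2h2be no ratio is given, since in each library 1 of the pair was listed at 0: Hist2h2be in replicates 1 and 2, and Hist1h2bc in replicate 3.

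The remaining 7 clustered genes with a value had it in 1 library each. H4 genes gave 26.9 TPM for Hist1h4k in replicate 2, 15.7 TPM for Hist1h4h in replicate 3 and 3.26 TPM for Hist2h4 in replicate 2. Hist2h2be gave 3.71 TPM in replicate 3 and Hist2h3c1, the sole clustered H3 gene with a value, 3.38 TPM in replicate 1. All words of Hist2h3c1 also occur in Gm20634, which overlaps it on the same strand, so its value cannot be assigned to 1 gene. Hist1h4k shares 86.2% of its words with other genes. Hist1h1d gave 1.96 TPM in replicate 2 and Hist1h2bh 1.01 TPM in replicate 3. Replicates 2 and 3 each held several of these values, and all 7 genes were undecided by limma. By location, 6 of 54 genes of the Hist1 cluster were listed above 0 in at least 1 library, 4 of 10 of the Hist2 cluster, 1 of 2 of the Hist3 cluster, and Hist4h4. By histone type, the counts were 2 of 6 for H1, 2 of 18 for H2A, 3 of 18 for H2B, 1 of 12 for H3 and 4 of 13 for H4. Over all genes in the table, the share listed above 0 was 63.1%. The testis genes Hist1h1t, Hist1h2aa and Hist1h2ba were among those listed at 0.

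Clustered genes also differed from variants in transcript length, and length moved with being listed at 0 across the whole table. The annotated coding transcript had a median of 539 bases over clustered genes and 1938 over variants, and 62 of 67 clustered genes had a single exon, against 4 of 10 variants. Among transcripts under 1000 bases, 46 of 49 clustered genes (93.9%) and 1173 of 1670 other protein-coding genes (70.2%) were listed at 0 in all libraries. At 1000 bases and over, 9 of 18 clustered genes, 1 of 10 variants and 33.1% of 17495 other protein-coding genes were listed at 0. No variant transcript was under 1000 bases, so below that length the classes cannot be compared. Of 42 ribosomal protein genes under 1000 bases, 1 was listed at 0, but their median of 1502 TPM leaves short transcripts at low or moderate levels unaddressed. Among members of at least 1000 bases, the mean log2 ratio of clustered over variant TPM was -6.88. That cut could remove clustered genes alone, so it could not raise the ratio, whatever the part of length. The part of length in the zeros was not tested, nor was that of RNA selection, which is not given in the sources used here and on which the capture of mRNAs without a poly(A) tail depends.

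**Figure D4:**
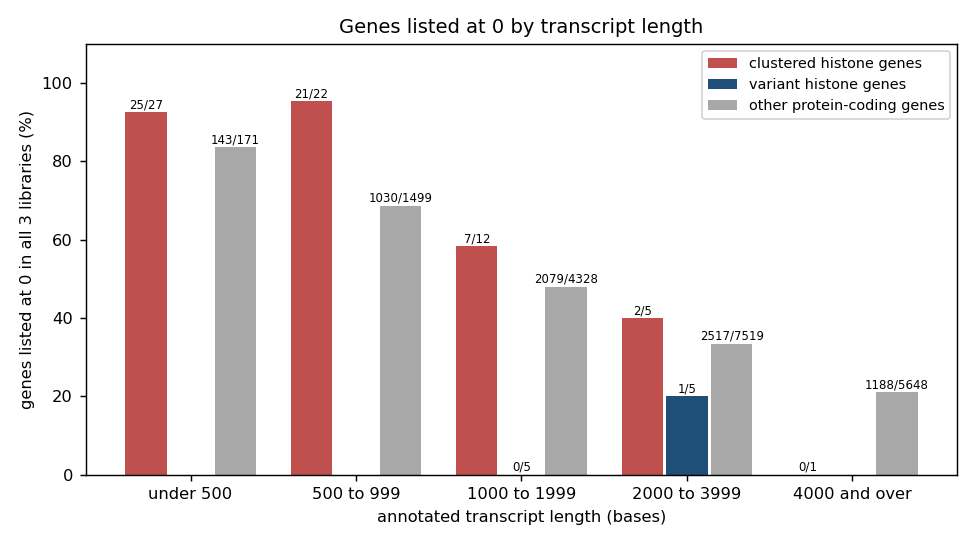
Percentage of genes listed at 0 in all 3 libraries by annotated transcript length in bases, with the number listed at 0 over the number of genes above each bar; clustered histone genes are red, variant histone genes blue and other protein-coding genes grey. The share falls with length in the other protein-coding genes, from 83.6% under 500 bases to 21% at 4000 bases and over.

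Of the 12 clustered genes that had values, 7 were annotated with a long 3′ extension. Of 18 clustered genes whose transcript runs at least 300 bases past the stem-loop, these 7 were listed above 0 in at least 1 library (38.9%). Over all genes in the table that share was 63.1%. Of 28 whose transcript ends within 300 bases of it, 2 were (7.14%), Hist2h2aa2 and Hist1h4h. Of the 21 without the motif in the annotation, 3 were, namely Hist1h2bc, Hist1h4k and Hist2h2be. The limit of 300 bases was set after the values were seen, in the gap between 185 and 330 bases. Of the 17 clustered genes with a poly(A) signal, 7 were listed above 0 (41.2%), and of the 50 without one, 5 were (10%). The clustered genes with a value also had longer transcripts, with a median of 1654 bases against 524 for those listed at 0. They shared fewer words with other genes, with a median of 29.1% against 59.7%. These features move together and were not separated.

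**Figure D5:**
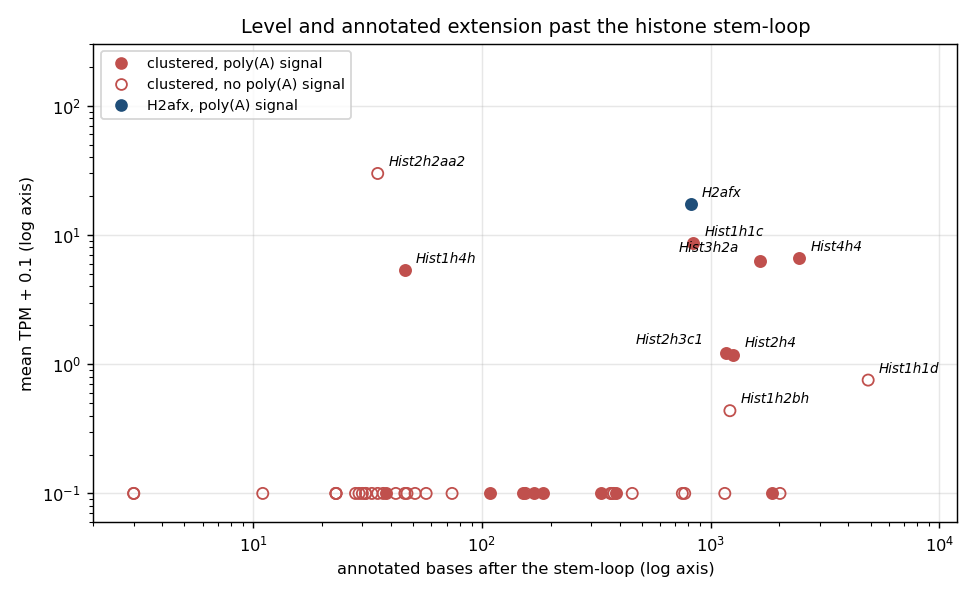
Mean TPM + 0.1 on a log axis against the annotated number of bases between the stem-loop and the transcript end (log axis) for the 46 clustered genes and H2afx that hold the motif; filled points have a poly(A) signal and genes at 0 TPM plot at 0.1. Hist2h2aa2 and Hist1h4h are the named points at the short end, and the other named points lie at 822 bases or more.

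Slbp, which is needed to process, export and translate clustered histone mRNAs, was above each clustered gene in every library. Slbp (chromosome 5, 33634952 to 33652574, minus strand) reached 183, 157 and 123 TPM (limma adjusted p = 2.51e-11 against 1 TPM). It was lower than H2afz in every library, by a mean log2 ratio of -1.59 ± 0.132 (exact sign-flip permutation p = 0.25), and higher in every library than the summed TPM of all clustered genes. Of 22 listed genes of histone mRNA transcription, processing and decay, Slbp included, 18 were above 1 TPM (81.8%), against 38.4% of all genes and 60.8% of the genes tested. The list includes cap-binding, cleavage and decay factors that act on other mRNAs too, so this share does not describe histone-specific processing. The median of the list was 18.9 TPM, against 2.24 TPM over all genes and 11.5 TPM over the genes tested. The highest besides Slbp were the cap-binding partner Srrt at 227 ± 21.1 TPM, the kinase Mapkapk2 at 125 ± 11.6 TPM and the cap-binding protein Ncbp1 at 75.4 ± 20.3 TPM. Lsm10, a subunit of the U7 particle that cuts clustered histone pre-mRNA, was listed at 0 in all 3 libraries. Another U7 subunit, Lsm11, was at 3.71, 2.63 and 1.16 TPM and undecided, and was named after its values were seen. The other undecided genes of the list were Xrn1 at 9.63, 2.28 and 1.75 TPM and Zfp473 at 0, 0 and 3.76 TPM. These were likewise named after their values were seen. Npat, the coactivator of clustered histone genes, was at 5.21, 4.88 and 13.1 TPM and above 1 TPM (limma adjusted p = 0.00435), and was also named after its values were seen.

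Genes that carry and deposit histones spanned a wide range. Of 31 chaperones and deposition factors, 24 were above 1 TPM (77.4%, against 38.4% of all genes and 60.8% of the genes tested), 7 were undecided, and each had a value in at least 1 library. Their median was 41.4 TPM, against 2.24 TPM over all genes, and the lowest mean was 0.52 TPM. The highest were Npm1 at 3172 ± 40.7 TPM, Ncl at 2300 ± 296 TPM, the H2A-H2B chaperone Nap1l1 at 1687 ± 127 TPM and the H3-H4 chaperone Nasp at 1046 ± 152 TPM. The following genes were named after their values were seen. Of the HIRA complex, which deposits H3.3 independently of replication, Ubn1 was at 239 ± 2.55 TPM, Ubn2 at 18.6 ± 4.73 TPM, Hira at 12.3 ± 5.45 TPM and Cabin1 at 9.46 ± 1.81 TPM, all above 1 TPM (limma, Benjamini-Hochberg). Of the CAF-1 complex, which deposits H3 at replication forks, Chaf1a was listed at 7.52, 2.35 and 0.76 TPM and Chaf1b at 0, 1.56 and 0 TPM, both undecided. Its remaining subunit, Rbbp4, which also belongs to other complexes, was at 109, 103 and 107 TPM and above 1 TPM (limma adjusted p = 2.05e-11). The chaperone that removes H2A.Z, Anp32e, was at 379 ± 66.2 TPM. Whether the levels of the 2 complexes differ was not tested.

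S phase genes are expressed together with clustered histones in dividing cells. Among those tested, the share above 1 TPM was near that of all genes tested. Of 27 S phase genes, 16 were above 1 TPM (59.3%, against 38.4% of all genes). These were 16 of the 24 that were tested, against 60.8% of all genes tested. A further 8 were undecided and 3, Ccne1, Gins2 and Ung, were listed at 0 in every library. The median over the 27 was 8.87 TPM, against 2.24 TPM over all genes and 11.5 TPM over the genes tested. The highest were Pcna at 393 ± 25.2 TPM, Cdk2 at 1.94, 82.6 and 16.1 TPM, Mcm7 at 32 ± 11.5 TPM and Rrm1 at 22.3 ± 9.30 TPM. Rrm2, the S phase subunit of ribonucleotide reductase, was at 10.7 ± 4.30 TPM, Mki67 at 5.52 ± 1.74 TPM and Ccna2 at 0, 5.13 and 2.84 TPM, of which Ccna2 was undecided. Of 12 other variant and testis histone or protamine genes, 10 were listed at 0 in all libraries: H1foo, H1fnt, H2afb1, H2afb2, H2afb3, H2bfm, Prm1, Prm2, Tnp1 and Tnp2. The centromeric H3 gene Cenpa was at 7.12, 11.9 and 0 TPM and Hils1 at 14.0, 0 and 0 TPM, both undecided.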

How the data were processed

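Per the labels, a Picopure kit was used for RNA and Illumina protocols for the libraries. The submitters' processing notes name mm10, CASAVA 1.8, Bowtie 0.12.9 and RSEM 1.2.3. Their roles, the RNA selection, the strand and the gene annotation: not given in the sources used here. The authors deposited TPM, renormalised without mitochondrial genes according to the table's name. Since a 0 can be a failed estimate, it is reported as "listed at 0". Levels were tested on log2(TPM + 0.1) with limma 3.58.1 in R 4.3.3: an intercept over the 3 libraries against log2(1 + 0.1), two-sided, variance trend, Benjamini-Hochberg adjustment over all 12822 genes tested. The test was also run on simulated data with normal noise on the log2 scale. Genes set at a level were drawn at random and kept their own fitted variance, which was not matched to that level. The rates below may therefore differ for real genes, above all for those listed at 0 in some libraries. Of genes set at 2, 4, 8 and 16 TPM, 4%, 28%, 80% and 90% were called above 1 TPM. Of genes set at 1 TPM, 0.5% were called above and 5% below. An undecided call therefore does not place a gene at or below 1 TPM. Pairs of genes were tested on their log2 ratio in each library by an exact sign-flip test. Annotation, transcripts and positions are from GENCODE M21 on GRCm38, the assembly of mm10. Each gene was represented by its longest coding transcript, and shared words are the percentage of its 31-base words found in those of other genes. Alternatives covered the pseudocount (1 and 0.01), filters (a mean of at least 0.1 TPM, or none), scaling, the variance prior, class membership and leaving out each library. The genes named are all variants, Slbp, clustered genes called or of at least 10 TPM, pair members, and for each other list the 4 highest, those at 0 and 4 S phase genes; clustered genes with lower values are also given in full. Marker lists are given by counts, sums, Pax7 and some of their highest and lowest genes, outside that rule. The genes said to be named after their values were seen are also outside it. The count and sum of the erythroid list are not reported here. Members and lists were chosen with earlier results of these data known.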

Additional observations from a re-analysis of the deposited data

How the results depend on the processing

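No paired analysis was possible because the 3 libraries form 1 group. The count of histone genes above 1 TPM was 9 and ranged from 8 to 11 over all alternatives; that of variants ranged from 7 to 8. The count of clustered genes was 2, or 3 with a robust variance prior, and ranged from 1 to 4 when 1 replicate was left out. Without replicate 1, Hist1h1c and Hist3h2a passed as well; without replicate 3, Hist1h2bc passed; without replicate 2, Hist4h4 did not. The mean log2 ratio of clustered over variant TPM was -6.01. It was -6.63 without the highest clustered gene, -4.83 without the highest variant, -6.71 without genes sharing over 50% of their words and -7.38 as a difference of mean log2 levels. In alternatives added after seeing the data it was -6.88 for transcripts of at least 1000 bases, -2.43 without H3f3a and H3f3b, and -0.0471 without these and H2afz. No variant shared over 50% of its words or had a transcript under 1000 bases. Except for the mean log2 levels, each of these alternatives thus left out genes of 1 class alone. The direction of the change was then fixed in advance. Leaving out 1 replicate gave -6.19 to -5.78. Of 45 alternatives on gene pairs, 1 changed the direction: Hist1h1c over H1f0 was 0.0912 without replicate 1, with a range of -3.57 to 0.0912 over the replicates left out. For Hist1h4h, whose log2 level over 1 TPM was -1.02, the value was 0.35 with a pseudocount of 1 and 0.19 without replicate 1 or 2. For Hist1h4k, at -0.77, it was 0.60 with a pseudocount of 1 and 0.58 without replicate 1 or 3. Both genes were undecided throughout and have 1 library above 0. The cause of the other changes was not tested. Without a filter H1fx was called below 1 TPM (limma adjusted p = 0.0488). Depth is unknown, so zeros carry no limit.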
